A study of Mus musculus with 9 samples.

Results

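The 9 genes described here encode proteins that switch plasminogen on and that start, limit or finish clotting: Plau, Plat, Plaur, Serpine2, F3, Tfpi, F13a1, Thbd and Procr. They were chosen by gene name, with earlier results of these libraries known. Each name matched 1 feature of the 28370 in the expression table after features with the same name were summed. RNA was sequenced from skin of ulcers on day 21 in 3 groups of 3 libraries, given here as non-diabetic, diabetic and PRP. The non-diabetic group had ulcers without diabetes and received saline. The diabetic group had diabetes with ulcers and received the same volume of saline. The PRP group had diabetes with ulcers and received platelet-rich plasma, blood plasma with concentrated platelets, injected at the wound. Injections were of 0.5 ml on days 1, 7, 14 and 21 in all 3 groups. Skin was thus taken on the day of the fourth injection. No group was unwounded skin. The series design speaks of rats, and all 30560 identifiers in the table are rat Ensembl genes, although the labels give the organism as mouse. The strain, age and sex of the animals and the way diabetes was induced are not given in the sources used here. The labels number the libraries as biological replicates.

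Plasmin is the protease that dissolves fibrin, and it is cut from plasminogen by 2 activators, urokinase (Plau), which acts largely at the cell surface on its receptor (Plaur), and tissue-type activator (Plat), which acts on fibrin. Serpins such as Serpine2 block both. Clotting starts when tissue factor (F3) meets plasma factor VII, is held back at that step by Tfpi, and ends when factor XIII (F13a1 encodes its catalytic subunit) cross-links fibrin. Thrombomodulin (Thbd) and the endothelial protein C receptor (Procr) turn thrombin towards activating the anticoagulant protein C. In a healing wound fibrin forms the first matrix, and cells that move into it use plasmin to clear it.

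The measure is FPKM, fragments scaled by gene length and by library size, and it was compared as log2(FPKM + 1). FPKM summed to between 564078 and 728332 per library. The PRP libraries had the highest sums, 702718 to 728332, and the other libraries had 564078 to 676150. Read totals are not given in the tables used. Depth was estimated at 0.839 to 1.116 times the mean, from the reads behind each unit of FPKM in 109 lncRNA genes with deposited read counts. The reads of all lncRNA genes in that table summed to between 94183 and 166989 per library. Epidermal keratin genes marked the tissue as skin in 8 libraries, and non-diabetic replicate 3 stood apart. It held 40.8 FPKM of the basal keratin gene Krt5 and 15.5 FPKM of the suprabasal Krt10, against at least 507 and 332 FPKM elsewhere. The sum of 7 hair follicle genes was 6.48 FPKM there, 146 FPKM in non-diabetic replicate 1 and 391 to 4286 FPKM in the other libraries. Whether a gene was lower because fewer cells of a type were in the sample or because each cell held less of its RNA cannot be told apart in these bulk samples.

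In the first comparison, diabetic against non-diabetic ulcers, the genes of plasminogen activation fell: the 2 activators Plau and Plat and the receptor gene Plaur were called lower, which means an adjusted p under 0.05 in limma, and none of the 9 genes was called higher. All 9 passed the filter on low values. Over all 15600 tested features 8.95% were called, 7.16% lower and 1.79% higher. At an unadjusted p under 0.05, 6 of the 9 genes were lower, and 19.0% of tested features were. The groups did not overlap for 4 of the 9 genes, Plau, Plat, Plaur and Thbd, each lower in diabetic ulcers, where 19.6% of all tested features were lower without overlap. The median log2 change was -0.97 over the 9 genes and 0.04 over all tested features. The genes were chosen with earlier results of these libraries known, so these shares describe them and do not test an excess. Between PRP and diabetic ulcers no member passed, and 0% of tested features did. Between PRP and non-diabetic ulcers no member passed either, and 0.00641% of tested features did.

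**Figure D1:**
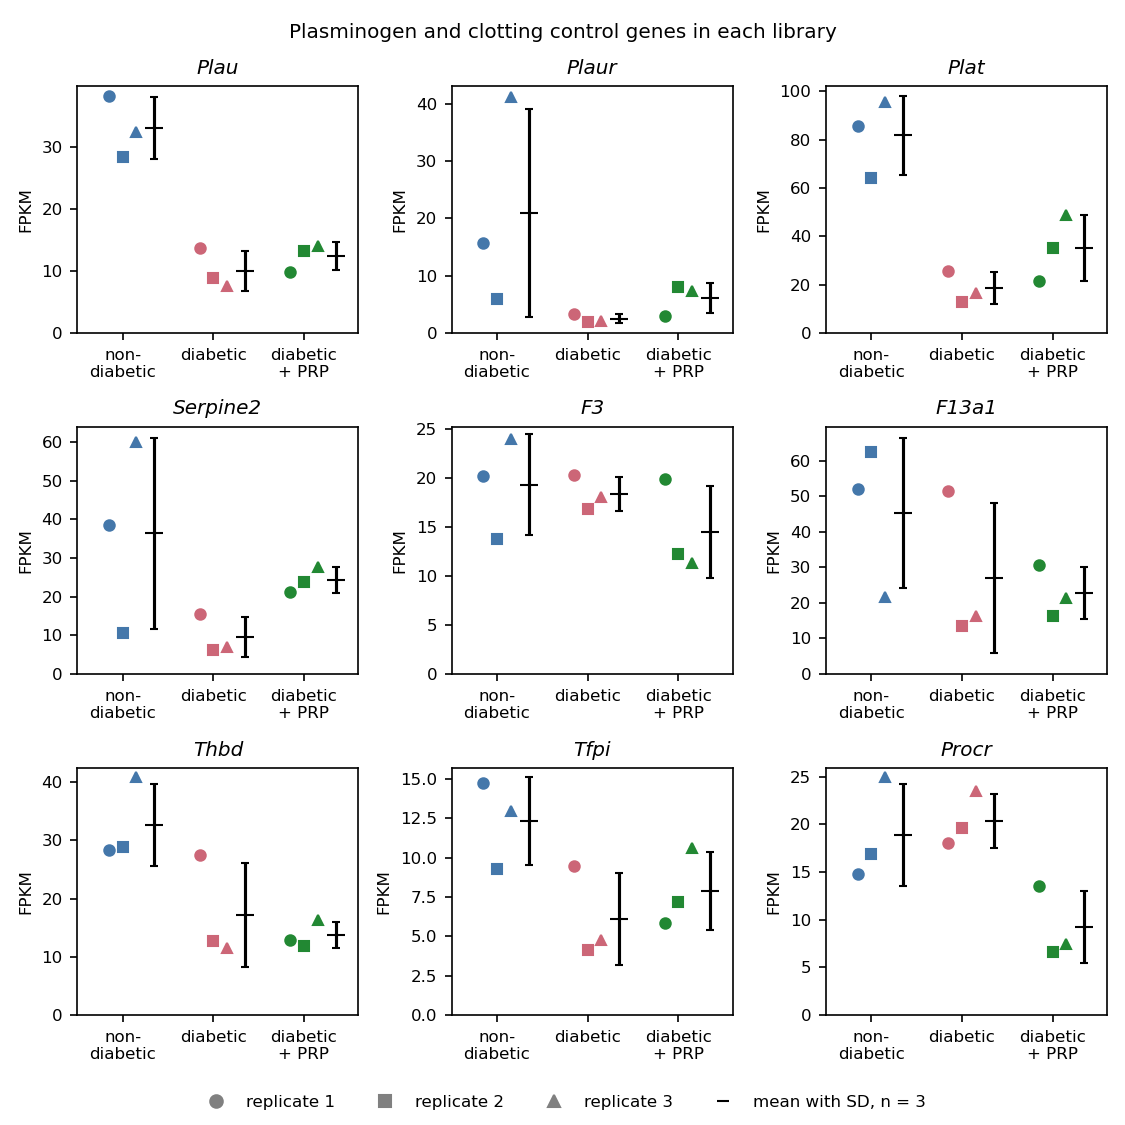
FPKM of the 9 genes (vertical axes, each from 0) in non-diabetic, diabetic and PRP ulcers, with 1 symbol per library and the group mean with its SD (n = 3) in black. Plau and Plat were higher in every non-diabetic library than in every other library, and Procr was lower in every PRP library than in every other library.

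The order of the genes by level differed between the groups. FPKM is scaled by length, so levels can be set side by side across genes. In non-diabetic ulcers Plat had the highest mean, 81.8 FPKM, followed by F13a1 at 45.3 and Serpine2 at 36.4 FPKM, and Tfpi had the lowest at 12.3 FPKM. In diabetic ulcers F13a1 led with 27.0 FPKM, followed by Procr at 20.4, Plat at 18.5 and F3 at 18.4 FPKM, and Plaur was lowest at 2.49 FPKM. In PRP ulcers Plat led again with 35.2 FPKM, followed by Serpine2 at 24.3 FPKM, and Plaur was lowest at 6.10 FPKM. Within diabetic ulcers F13a1 ranged from 13.4 to 51.4 FPKM, so its lead over Procr, Plat and F3 lay inside its own spread.

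Plau (ENSRNOG00000010516, chromosome 15, 3456232 to 3462775, minus strand, in the table's coordinates) encodes urokinase, the activator that works at the cell surface. Levels of Plau in replicates 1 to 3 were 38.3, 28.4 and 32.5 FPKM without diabetes, 13.7, 8.82 and 7.55 FPKM with diabetes and 9.89, 13.3 and 14.0 FPKM with diabetes and PRP. Every non-diabetic library lay above every diabetic and every PRP library, and the diabetic and PRP libraries overlapped. The mean went from 33.1 ± 4.96 to 10.01 ± 3.22 FPKM (SD, n = 3 each), 3.30-fold lower in diabetic ulcers, a log2 change of -1.66 (SE 0.23, adjusted p = 0.0308). In PRP ulcers the mean was 12.4 ± 2.21 FPKM. The log2 difference from diabetic ulcers was 0.31 (95% confidence interval -0.22 to 0.84, adjusted p = 0.744) and that from non-diabetic ulcers was -1.35 (-1.88 to -0.82, adjusted p = 0.154).

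Plat (ENSRNOG00000019018, chromosome 16, 69240585 to 69268223, minus strand) encodes tissue-type plasminogen activator, whose activity rises when it is bound to fibrin. Levels of Plat in replicates 1 to 3 were 85.7, 64.0 and 95.6 FPKM without diabetes, 25.8, 12.99 and 16.7 FPKM with diabetes and 21.6, 35.1 and 48.8 FPKM with diabetes and PRP. The non-diabetic libraries were again above all others. PRP replicates 2 and 3 were above all diabetic libraries, and PRP replicate 1 lay among them. Plat fell in diabetic ulcers, with means of 81.8 ± 16.2 FPKM without and 18.5 ± 6.60 FPKM with diabetes (4.42-fold lower, log2 change -2.12, SE 0.33, adjusted p = 0.0308). In PRP ulcers it was 35.2 ± 13.6 FPKM, a log2 difference of 0.87 from diabetic ulcers (95% confidence interval 0.11 to 1.63, unadjusted p = 0.0288 in limma, adjusted p = 0.713). From non-diabetic ulcers the log2 difference was -1.25 (-2.01 to -0.49, adjusted p = 0.154).

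The calls of Plau and Plat rested on most of the libraries. The value 0.0308 is the smallest adjusted p in the comparison. Both calls held when PRP replicate 3, diabetic replicate 1 or non-diabetic replicate 2 was left out. Both were lost without non-diabetic replicate 1 (adjusted p = 0.133 for each), non-diabetic replicate 3 (0.118), diabetic replicate 2 (0.0879), diabetic replicate 3 (0.0569), PRP replicate 1 (0.0502) or PRP replicate 2 (0.0561). Over the 9 omissions the log2 change of Plau stayed between -1.88 and -1.50 and that of Plat between -2.38 and -1.91. With only the 6 libraries of the 2 groups both had an adjusted p of 0.0863, and with no filter on low values 0.0548.

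Plaur (ENSRNOG00000037931, chromosome 1, 80050324 to 80068595, plus strand) encodes the urokinase receptor, a surface protein of macrophages, neutrophils and migrating keratinocytes. Levels of Plaur in replicates 1 to 3 were 15.8, 5.97 and 41.1 FPKM without diabetes, 3.36, 1.96 and 2.14 FPKM with diabetes and 3.03, 7.96 and 7.31 FPKM with diabetes and PRP. The lowest non-diabetic library was above the highest diabetic one, but non-diabetic replicate 3 was far above the other 2 of its group, and PRP ulcers overlapped with both groups. Means were 21.0 ± 18.1 FPKM without and 2.49 ± 0.758 FPKM with diabetes (8.43-fold lower, log2 change -2.31, SE 0.59, adjusted p = 0.0478). The call held without non-diabetic replicate 2 or diabetic replicate 1. It was lost without each of the other 7 libraries, with adjusted p of 0.148 and 0.128 without non-diabetic replicates 1 and 3, 0.125 and 0.0996 without diabetic replicates 2 and 3, and 0.0613, 0.0740 and 0.0662 without PRP replicates 1 to 3. Its log2 change ran from -2.95, with non-diabetic replicate 2 left out, to -1.65, with replicate 3 left out. The call was also lost with the replicate number as a block (adjusted p = 0.0582), median-of-ratios scaling (0.0563), quantile normalization (0.0564), no filter on low values (0.0812) and the 6 libraries of these groups alone (0.0971). In all it was lost in 13 of 20 alternatives.

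PRP ulcers had a mean Plaur level of 6.10 ± 2.67 FPKM, a log2 difference of 0.96 from diabetic ulcers (95% confidence interval -0.39 to 2.31, adjusted p = 0.717). Of the 6 neutrophil markers Csf3r, Cxcr2 and Clec4d were highest in the 2 libraries with the most Plaur. Non-diabetic replicate 3 held 43.4 FPKM of the receptor gene Csf3r, 14.6 FPKM of Cxcr2 and 71.2 FPKM of Clec4d, and replicate 1 held 10.8, 4.14 and 31.3 FPKM. In PRP replicate 2, the highest PRP library for Plaur, Csf3r was at 4.03 and Cxcr2 at 3.48 FPKM. In the other 6 libraries both were at or below 1.38 FPKM, PRP replicate 3 with its 7.31 FPKM of Plaur included. The other 3 markers did not follow Plaur. S100a8 and S100a9, which wound-edge keratinocytes also express, were highest in PRP replicate 2, at 2448 and 3566 FPKM, against 150 and 394 FPKM in non-diabetic replicate 3, and Mpo stayed at or below 0.238 FPKM. The sum of the 6 was 60.4 to 1493 FPKM in non-diabetic, 52.3 to 340 FPKM in diabetic and 262 to 6036 FPKM in PRP ulcers. The 8 macrophage markers summed to 1656 to 2353 FPKM in non-diabetic, 237 to 1061 in diabetic and 732 to 1558 FPKM in PRP ulcers. Sums for other cell types also separated diabetic from non-diabetic ulcers, although markers within each sum overlapped. Col1a1 was at 3435 FPKM in diabetic replicate 3, above the highest non-diabetic library at 3000 FPKM. Myh11 of smooth muscle, Krt5 and Ivl of keratinocytes and Kit of mast cells overlapped as well. The 6 fibroblast markers summed to 16802 to 21855 FPKM in non-diabetic and 2981 to 16197 FPKM in diabetic ulcers, and the 4 smooth muscle markers to 260 to 446 and 149 to 247 FPKM. The 4 basal keratinocyte markers in the table were higher in diabetic ulcers, at 2680 to 3413 against 164 to 2429 FPKM, as were the 3 of differentiated keratinocytes, at 1373 to 2571 against 24.0 to 1028 FPKM, and the 4 of mast cells, at 31.3 to 60.9 against 22.8 to 30.7 FPKM. Skeletal muscle markers overlapped, at 2669 to 10347 against 166 to 2810 FPKM. The part of any of these cells in the Plaur, Plau and Plat differences was not tested.

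Serpine2 (ENSRNOG00000015461, chromosome 9, 81124804 to 81188826, minus strand) encodes protease nexin-1, a serpin that inhibits thrombin, urokinase and tissue-type activator. Levels of Serpine2 in replicates 1 to 3 were 38.5, 10.6 and 59.9 FPKM without diabetes, 15.5, 6.14 and 6.90 FPKM with diabetes and 21.2, 23.8 and 27.8 FPKM with diabetes and PRP. All PRP libraries were above all diabetic libraries, and it was the one gene of the 9 higher in PRP ulcers without overlap, where 5.79% of tested features were. The non-diabetic libraries spanned both groups. The mean was 24.3 ± 3.31 FPKM in PRP and 9.52 ± 5.21 FPKM in diabetic ulcers, 2.55-fold, with a log2 difference of 1.36 (SE 0.57, unadjusted p = 0.0411 in limma, adjusted p = 0.713). Non-diabetic ulcers had 36.4 ± 24.7 FPKM, and the log2 difference of diabetic from non-diabetic ulcers was -1.64 (SE 0.57, adjusted p = 0.0874). That difference was called without non-diabetic replicate 2 (-2.33, adjusted p = 0.0116). Leaving out replicate 3 of that group gave -1.13 (adjusted p = 0.249).

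F3 (ENSRNOG00000011800, chromosome 2, 209826959 to 209838668, plus strand) encodes tissue factor, the starter of clotting, which epidermal keratinocytes carry. It varied least of the 9 genes. Levels of F3 in replicates 1 to 3 were 20.2, 13.8 and 24.0 FPKM without diabetes, 20.3, 16.8 and 18.1 FPKM with diabetes and 19.9, 12.2 and 11.4 FPKM with diabetes and PRP. The highest library was 2.11 times the lowest, and all 3 groups overlapped. The means were 19.3 ± 5.15, 18.4 ± 1.76 and 14.5 ± 4.69 FPKM. The log2 difference of diabetic from non-diabetic ulcers was -0.04 (95% confidence interval -0.62 to 0.54, adjusted p = 0.921), and that of PRP from diabetic ulcers was -0.36 (-0.93 to 0.22, adjusted p = 0.738).

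Tfpi (ENSRNOG00000005039, chromosome 3, 69533156 to 69576880, minus strand) encodes the inhibitor of the tissue factor and factor VII complex, made by endothelium. Levels of Tfpi in replicates 1 to 3 were 14.7, 9.30 and 12.97 FPKM without diabetes, 9.46, 4.12 and 4.74 FPKM with diabetes and 5.84, 7.18 and 10.6 FPKM with diabetes and PRP. Diabetic replicate 1 lay just above non-diabetic replicate 2, so these groups overlapped, while the other diabetic libraries were the lowest of the 9. The means were 12.3 ± 2.77, 6.11 ± 2.92 and 7.89 ± 2.47 FPKM, and the log2 difference of diabetic from non-diabetic ulcers was -0.96 (SE 0.32, adjusted p = 0.0780). It was called without diabetic replicate 1 (-1.28, adjusted p = 0.0251) and, at the margin, without non-diabetic replicate 2 (-1.14, adjusted p = 0.0494). For PRP against diabetic ulcers the log2 difference was 0.36 (95% confidence interval -0.36 to 1.08, adjusted p = 0.771).

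F13a1 (ENSRNOG00000015957, chromosome 17, 27815702 to 27992700, plus strand) encodes the catalytic subunit of factor XIII, the transglutaminase that cross-links fibrin, made by tissue macrophages and carried by platelets. Levels of F13a1 in replicates 1 to 3 were 51.9, 62.4 and 21.8 FPKM without diabetes, 51.4, 13.4 and 16.3 FPKM with diabetes and 30.8, 16.4 and 21.5 FPKM with diabetes and PRP. All groups overlapped, and diabetic replicate 1 had about the level of non-diabetic replicate 1. The means were 45.3 ± 21.1, 27.0 ± 21.1 and 22.9 ± 7.28 FPKM. The log2 difference of diabetic from non-diabetic ulcers was -0.85 (95% confidence interval -2.09 to 0.39, adjusted p = 0.282), and that of PRP from diabetic ulcers was -0.02 (-1.26 to 1.21, adjusted p = 0.991), 0.56 without diabetic replicate 1. The macrophage receptor gene Cd163 had 48.3 FPKM in diabetic replicate 1 and 15.4 and 7.46 FPKM in diabetic replicates 2 and 3. In non-diabetic ulcers Cd163 did not follow F13a1, with 33.8, 33.1 and 41.3 FPKM in replicates 1 to 3, the highest where F13a1 was lowest. The other macrophage markers differed there. C1qa had the order of F13a1, at 332, 347 and 289 FPKM, and C1qb was also lowest in replicate 3, at 255 FPKM. Cd68, Csf1r, Adgre1, Mrc1 and Lyz2 were lowest in replicate 2, where F13a1 was highest. Of the 6 platelet markers Pf4 had 43.3 to 46.4 FPKM in non-diabetic, 4.31 to 36.1 FPKM in diabetic and 23.2 to 36.0 FPKM in PRP ulcers. Itga2b had 0.334 to 1.27 FPKM in the 9 libraries, and Ppbp, Gp1ba, Gp9 and Treml1 stayed below 0.6 FPKM in each library, Ppbp at 0 in 6 of them. Their part in the F13a1 level was not tested.

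Thbd (ENSRNOG00000004687, chromosome 3, 135862835 to 135867193, minus strand) encodes thrombomodulin, the receptor that changes thrombin from a clotting enzyme into an activator of protein C. Levels of Thbd in replicates 1 to 3 were 28.3, 28.9 and 40.8 FPKM without diabetes, 27.4, 12.6 and 11.4 FPKM with diabetes and 12.9, 11.9 and 16.3 FPKM with diabetes and PRP. Every non-diabetic library was above every other library, with diabetic replicate 1 only just below. The means were 32.6 ± 7.05, 17.2 ± 8.89 and 13.7 ± 2.29 FPKM. The log2 difference of diabetic from non-diabetic ulcers was -0.97 (SE 0.31, adjusted p = 0.0745), and it was called without diabetic replicate 1 (-1.35, adjusted p = 0.0129). That of PRP from non-diabetic ulcers was -1.18 (95% confidence interval -1.90 to -0.47, unadjusted p = 0.00470 in limma, adjusted p = 0.154). PRP and diabetic ulcers overlapped, with a log2 difference of -0.21 (-0.92 to 0.50, adjusted p = 0.855).

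Procr (ENSRNOG00000019330, chromosome 3, 144254380 to 144258903, plus strand) encodes the receptor that presents protein C to the thrombin and thrombomodulin complex. Levels of Procr in replicates 1 to 3 were 14.8, 16.9 and 24.9 FPKM without diabetes, 18.0, 19.6 and 23.5 FPKM with diabetes and 13.6, 6.60 and 7.46 FPKM with diabetes and PRP. It was the only gene of the 9 whose mean was highest in diabetic ulcers. Every PRP library was below every other library, with PRP replicate 1 close to non-diabetic replicate 1. The mean was 9.20 ± 3.79 FPKM in PRP and 20.4 ± 2.83 FPKM in diabetic ulcers, 2.21-fold lower with PRP, a log2 difference of -1.12 (SE 0.28, 95% confidence interval -1.76 to -0.48). It had the smallest unadjusted p of the 9 genes in that comparison (0.00337 in limma), and the adjusted p was 0.713. Of tested features 5.55% were lower in PRP than in diabetic ulcers without overlap. Against non-diabetic ulcers the PRP difference was -0.99 (SE 0.28, adjusted p = 0.155), and diabetic ulcers differed from non-diabetic ulcers by 0.13 (-0.51 to 0.77, adjusted p = 0.759).

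The 7 endothelial markers summed to 164 to 271 FPKM in non-diabetic, 75.2 to 159 FPKM in diabetic and 82.5 to 143 FPKM in PRP ulcers. Diabetic replicate 1, the highest diabetic library for Thbd and Tfpi, was also the highest for this sum. Procr did not follow it, with 18.0 FPKM in that library and 19.6 and 23.5 FPKM in the other diabetic libraries. The part of endothelial cells in these differences was not tested.

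**Figure D2:**
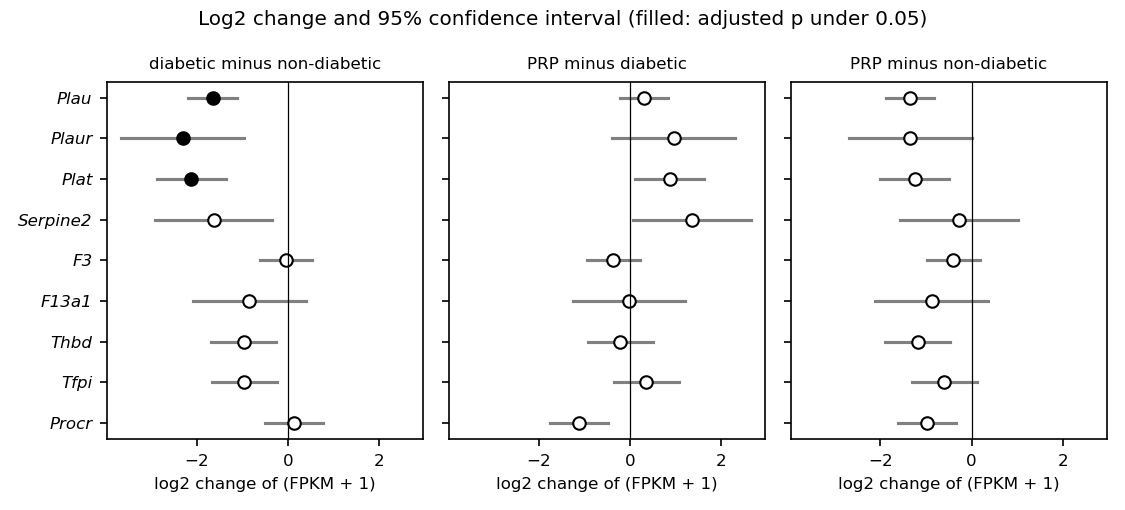
Log2 change of FPKM + 1 (horizontal axes) of the 9 genes in the 3 comparisons, with 95% confidence intervals from limma over 9 libraries and filled points for an adjusted p under 0.05. Plau, Plaur and Plat carry the filled points, at -1.66, -2.31 and -2.12 in diabetic against non-diabetic ulcers, and no point is filled in the other comparisons. The comparisons share libraries.

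For PRP against diabetic ulcers limma called 0 of 15600 features, with and without the trend, and 1021 (6.54%) had an unadjusted p under 0.05. Of the 9 genes 3 did, with Plat and Serpine2 estimated higher, as 3.98% of tested features were at that p, and Procr lower, as 2.56% were. For PRP against non-diabetic ulcers limma called 1 feature, and 3182 (20.4%) had an unadjusted p under 0.05. All 9 genes were estimated lower in PRP ulcers, 4 of them (Plau, Plat, Thbd and Procr) with an unadjusted p under 0.05, as for 12.8% of tested features, and without overlap, as for 20.4%. Plau was called in that comparison without non-diabetic replicate 2 (log2 difference -1.45, adjusted p = 0.0413).

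Ratios of 2 genes within a library do not depend on how that library was scaled, apart from the pseudocount. They are given for 6 pairs as log2 ratios of FPKM + 1 and are described without a test. How often ratios of other gene pairs separate the groups was not computed. The ratio of Plau to its inhibitor Serpine2 was -0.17, 0.46 and 0.11 in diabetic and -1.03, -0.79 and -0.94 in PRP ulcers. The PRP libraries were thus closely grouped and below all diabetic ones, while the non-diabetic libraries, at -0.01, 1.34 and -0.86, spread over both. Plau over its receptor Plaur was 1.44 to 1.75 in diabetic and 0.68 to 1.43 in PRP ulcers, groups that barely missed each other, and -0.33 to 2.08 in non-diabetic ulcers, which spanned both.

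The ratios of clotting genes, which have F3 or Thbd in common, did not overlap between diabetic and non-diabetic ulcers. Among single features 3064 of the 15600 tested were lower and 2252 higher in diabetic ulcers without overlap. F3 over its inhibitor Tfpi was 0.43 to 0.84 in non-diabetic and 1.02 to 1.80 in diabetic ulcers, with PRP libraries at 1.61, 0.69 and 0.09. F3 over Thbd was -1.01 to -0.47 in non-diabetic and -0.42 to 0.62 in diabetic ulcers, and diabetic replicate 1 was the library next to the non-diabetic ones. Thbd over Procr was 0.69 to 0.89 in non-diabetic ulcers and 0.58, -0.60 and -0.98 in diabetic replicates 1 to 3. In PRP ulcers it was -0.06, 0.77 and 1.03. A ratio alone shows unequal change of its genes, not which gene moved. By gene, the log2 changes from non-diabetic to diabetic ulcers were -0.04 for F3 and 0.13 for Procr. They were -0.96 for Tfpi and -0.97 for Thbd, and none of these genes was called. Plat over Serpine2 overlapped in both comparisons.

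**Figure D3:**
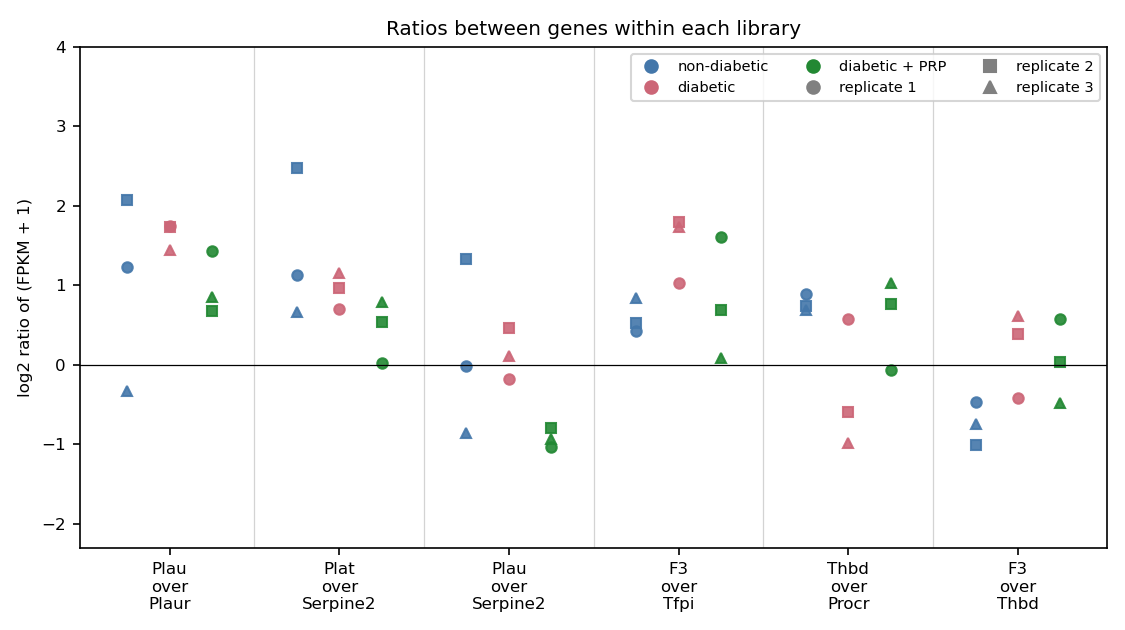
Log2 ratio of FPKM + 1 between pairs of genes (vertical axis) in each library, coloured by group, with 1 symbol shape per replicate number. For Plau over Serpine2 the PRP libraries lie between -1.03 and -0.79, below the diabetic libraries, and for F3 over Tfpi the diabetic libraries lie between 1.02 and 1.80, above the non-diabetic libraries.

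Other genes of the plasminogen system were taken from a list of 26, of which 25 are in the table and 18 were tested. The list was chosen with earlier results of these libraries known. In diabetic ulcers 3 of the 18 were called lower and 0 higher, with a median log2 change of -0.77. By estimate alone 15 were lower and 3 higher. Over all tested features 7.16% were called lower and 1.79% higher, with a median of 0.04, and 7258 were estimated lower and 8342 higher. The clearance receptor gene Lrp1, which takes up activators bound to their inhibitors, decreased from 146 ± 20.8 to 67.7 ± 20.6 FPKM (a difference of -1.13 on the log2 scale, SE 0.25, adjusted p = 0.0380). Mrc2, which encodes a collagen receptor that associates with the urokinase receptor, dropped from 55.6 ± 14.1 to 18.0 ± 6.90 FPKM (-1.60, SE 0.35, adjusted p = 0.0380). Vtn, the gene of vitronectin, an adhesive protein of plasma and matrix, went down from 10.4 ± 2.81 to 4.65 ± 0.732 FPKM (-0.99, SE 0.20, adjusted p = 0.0357). Serpinb2 encodes a serpin of keratinocytes and macrophages that inhibits urokinase. It was higher in every diabetic than in every non-diabetic library but did not pass the test (0.82, adjusted p = 0.180). Its levels were 5.31 to 10.3 FPKM in non-diabetic, 11.2 to 20.9 in diabetic and 14.3 to 42.8 FPKM in PRP ulcers. Without overlap 1 of the 18 genes, Serpinb2, was higher and 7 were lower in diabetic ulcers, against 2252 and 3064 of 15600 tested features. Plasminogen (Plg), which is made in the liver, was at 0 to 0.182 FPKM in the 9 libraries and was not tested.

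The clotting list held 35 genes, of which 34 are in the table and 21 were tested. In diabetic ulcers 5 were called lower and 0 higher, with a median log2 change of -1.03, against the same 7.16%, 1.79% and 0.04 over all tested features. By estimate alone 18 were lower and 3 higher. Without overlap 13 were lower and 0 higher, against 3064 and 2252 of 15600 tested features. The list shares Pf4, Itga2b and Gp1ba, the last not tested, with the platelet markers. Anxa5, whose protein covers clot-promoting phospholipid, decreased from 234 ± 58.5 to 79.0 ± 27.7 FPKM (a difference of -1.59 on the log2 scale, SE 0.34, adjusted p = 0.0361). Ggcx, the carboxylase that vitamin K dependent factors need, declined from 14.6 ± 1.91 to 6.30 ± 1.50 FPKM (-1.10, SE 0.20, adjusted p = 0.0308), and the factor VIII gene F8 from 6.41 ± 1.09 to 3.41 ± 0.831 FPKM (-0.76, adjusted p = 0.0442). The others were Adamts13, whose protease cleaves von Willebrand factor (-0.58, adjusted p = 0.0418), and the thrombin receptor gene F2rl3 (-0.88, adjusted p = 0.0357), which was named after its values were seen. F2rl3 was low, at 1.55 to 2.29 FPKM in non-diabetic and 0.387 to 1.01 FPKM in diabetic ulcers, near the filter at 0.5 FPKM. The von Willebrand factor gene Vwf was at 12.4 to 22.2 FPKM in non-diabetic and 2.35 to 9.62 FPKM in diabetic ulcers (-1.42, adjusted p = 0.0634). The thrombin receptor gene F2r (-0.66, adjusted p = 0.149) and F2rl1 (0.34, adjusted p = 0.238) overlapped between the groups. Transcripts of prothrombin (F2) and the fibrinogen chains, plasma proteins made in the liver, were near 0. F2 was at 0.0461 to 0.586 FPKM, Fga at 0 to 0.242, Fgg at 0.218 to 0.480 and Fgb at 0.324 to 1.03 FPKM. Some plasma factor genes of the list were higher, with F5 at 1.91 to 5.46 and Pros1 at 7.16 to 26.5 FPKM. The calls of both lists depended on the same libraries as those of Plau and Plat, and so did the calls over all tested features. When non-diabetic replicate 1 or 3, diabetic replicate 2 or 3, or PRP replicate 1 or 2 was left out, 0 genes of either list and 0 to 2 of all tested features were called. Without PRP replicate 3 it was 1 in each list and 411 of 15503 features. Without non-diabetic replicate 2 it was 6 of the plasminogen and 12 of the clotting list and 3475 of 15500 features. Without diabetic replicate 1 it was 8, 9 and 2604 of 15491 features. For PRP against either other group 0 genes of the lists passed in the unweighted fit of all 9 libraries. Over the alternatives the count for PRP against non-diabetic ulcers reached 10 in the plasminogen and 16 in the clotting list. The 16 came with sample weights, where 6474 of 15600 features were called. The estimates for PRP minus diabetic had a median of 0.26 in the plasminogen and 0.25 in the clotting list, against -0.06 over all tested features.

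**Figure D4:**
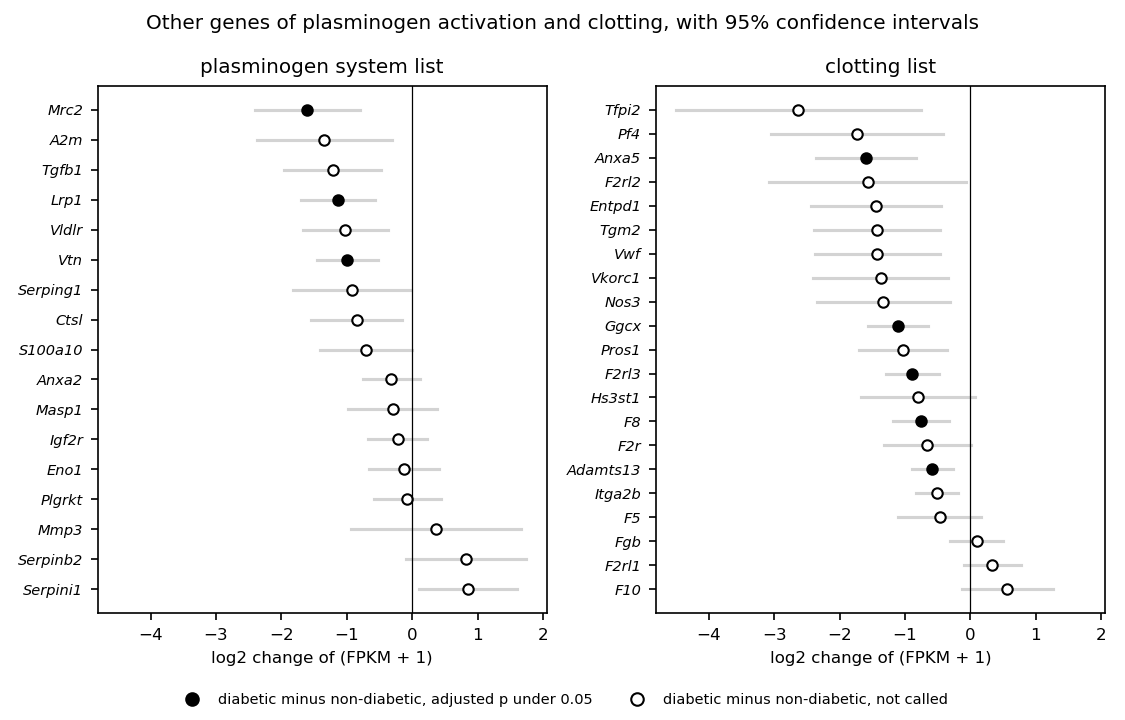
Log2 change of FPKM + 1 from non-diabetic to diabetic ulcers (horizontal axis) for 17 of the 18 tested genes of the plasminogen system list and the 21 of the clotting list, sorted by size, with 95% confidence intervals and filled points for an adjusted p under 0.05. Filled points are 3 on the left and 5 on the right, all below 0.

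The named genes whose pattern over the 9 libraries was most like that of a member were ranked by Pearson's r of log2(FPKM + 1), as a description with no test. Libraries of a group share their treatment, and the genes given were picked for the highest values. How common such values are was not computed. Plat was most like the Wnt modulator gene Sfrp2 (r = 0.99), then Cdr2l and the collagen-modifying enzyme gene Plod3. Plau was most like Adamts13 (r = 0.99), Tbc1d9b and Man1c1. Plaur was most like Slc15a3, Akna and Trpm2 (r = 0.99 each). Tfpi was most like Rusc2 (r = 0.99), Zfp521 and Esyt2, and Thbd was most like Hid1 (r = 0.98), Tnfrsf26 and Fam149a. Serpine2 was most like the chemokine gene Cxcl16 (r = 0.97), Arl5c and Slc2a6. F13a1 was most like Foxred2 (r = 0.96), the selenium carrier gene Selenop and Cped1. Procr was most like the helicase gene Dhx36 (r = 0.98), followed by Cfdp1, both lowest in PRP replicates 2 and 3. F3 was most like Mybl1 (r = 0.94), the cohesin gene Stag1 and Atp6v1c1.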

How the data were processed

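RNA of 9 ulcer skin samples was sequenced. Libraries were made from total RNA with a directional kit, per the labels. HISAT2, StringTie, cutadapt and FastQC appear in the submitters' processing notes, with no version, beside a mouse build, GRCm39. All identifiers are rat, no rat build is named in the sources used, and coordinates are those of the table. The authors deposited FPKM per gene, scaled by them for gene length and library size, and raw read counts of 249 lncRNA genes, which served only for relative depth (genes with at least 10 reads in each library). FPKM of features with the same name were summed. Features that reached 0.5 FPKM in 3 or more of the 9 libraries were tested as log2(FPKM + 1), which understates the change of low genes. One limma-trend fit (limma 3.58.1, R 4.3.3) with group as its term gave two-sided contrasts, adjusted by Benjamini-Hochberg over all 15600 features. Each p-value sets the difference between groups against the spread within groups of these samples, estimated over all 9 libraries. The comparisons share libraries. Named genes are the members, pathway genes always given, up to 6 called list genes with the highest mean and the 3 genes most like each member. A few of these are not reported here. Members and lists were chosen with earlier results of these data known. No member overlaps another feature of the table (0 of 9). Alternatives were another pseudocount, other filters, other scalings, sample weights, a replicate block, no trend, unsummed features, the 6 compared libraries alone and omission of libraries. Replicate numbers were not taken to pair the samples. The reference sequences at hand are of mouse and were not used.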

Additional observations from a re-analysis of the deposited data

How the results depend on the processing

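In diabetic against non-diabetic ulcers 3 of the 9 genes were called, and each of the 3 kept its direction in all 20 alternatives. The count was 0 with no filter, with only the 6 libraries compared and without non-diabetic replicates 1 and 3 together (1 non-diabetic library left), 6 with sample weights, and 0 to 5 over the 9 omissions of 1 library. For PRP against non-diabetic ulcers it was 8 with sample weights, where non-diabetic replicate 1 had a weight of 7.495 and the other libraries 0.396 to 2.96, and 0 to 1 over the omissions. For PRP against diabetic ulcers it was 0 in all 20 alternatives. Over all tested features 1396 were called in diabetic against non-diabetic ulcers, 5607 with sample weights, 885 with median-of-ratios scaling and 0 with no filter; for PRP against non-diabetic ulcers 1 was called, and 6474 with sample weights. The cause of these shifts was not tested.

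Estimates that changed sign were all uncalled. F13a1 in PRP minus diabetic ulcers was 0.0434 with median-of-ratios scaling and 0.0491 with quantile normalization. Over the omissions of 1 library it ran from -0.376 to 0.5556, with 0.1841 when PRP replicate 2 and 0.0004 when PRP replicate 3 was left out. F3 in diabetic minus non-diabetic ulcers ran from -0.2521 to 0.1255, above 0 when diabetic replicate 2 (0.0191) or non-diabetic replicate 1 (0.0061) or 3 was left out. With both of these non-diabetic libraries left out it was 0.3837, and F3 in PRP minus non-diabetic ulcers was 0.0242. Procr in diabetic minus non-diabetic ulcers ran from -0.0202 to 0.3383, Serpine2 in PRP minus non-diabetic ulcers from -0.9659 to 0.2273, and 1.1096 with both left out, and Thbd in PRP minus diabetic ulcers from -0.4303 to 0.1655.

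With the replicate number as a block 2 of the 9 genes were called in diabetic against non-diabetic ulcers and 0 in the others, and the call of Plaur was lost. Deviations of same-numbered libraries correlated at -0.407 to 0.351, and those of libraries with different numbers at -0.439 to 0.552. The numbers were therefore not taken to pair the samples, although groups this small cannot exclude a pairing. Groups of 3 limit the precision of each value.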
